A study of Mus musculus with 3 samples.

Results

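Prss34, Mcpt8, Cpa3, Fcer1a, Ms4a2, Hdc, Prg2, Epx, Il5ra and Gata2 are 10 genes known from basophils, mast cells and eosinophils, and their mRNA was followed in mouse bone marrow (BM) cells during treatment with LECT2. They were picked by symbol as genes of these cells, without a threshold on a measured value but with earlier results of these data known. All 10 were found in the deposited tables, among 17250 gene symbols once rows without a symbol were named. LECT2 (leukocyte cell-derived chemotaxin 2) is a cytokine of the blood, and the study asked how it acts on haematopoietic cells of the marrow. C57BL/6 mice of 6 to 8 weeks were given the recombinant protein under the skin daily at 300 μg/kg, for 0, 3 or 5 days. Cells were flushed from the leg, hip and arm bones, and no sorting by cell type is described. The labels and methods speak of flushed cells, whereas a legend of the study calls the sequenced cells mononuclear. Whether granulocytes were depleted by such a step is therefore not known. There was 1 library per time point. What the mice at 0 days were injected with, if anything, and how many mice went into a library are not stated in the sources used here.

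Basophils, mast cells and eosinophils are rare granule-bearing white cells that develop in the marrow from progenitors that depend on GATA factors. Basophils and mast cells carry the high-affinity receptor for IgE, which has an alpha chain that binds IgE, a beta chain that amplifies the signal and gamma chains that start it, and on cross-linking the cells release histamine and proteases. Eosinophils depend on IL-5 and store basic proteins and a peroxidase in their granules, which they release against parasites and in allergy.

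The reads counted on genes came to 15523952, 15146983 and 15514673 for the libraries of 0, 3 and 5 days. Levels are given as RPKM, which is the read count divided by transcript length and by library total, and allows a comparison between genes of different length. Their 95% intervals are exact for a Poisson count, and those of the log2 ratio of a gene between libraries are exact (Clopper-Pearson). Like every interval below, they cover the error of counting reads only. Copies made by PCR were not told apart from independent molecules. With 1 library per time point no difference has a replicate check, and no test of a condition was made. The 10 genes with the most reads of each library took 12.5%, 10.4% and 5.38% of its reads in the same order, and this share moves the RPKM of all other genes. Over all genes that reached 1 RPKM in 1 of the libraries compared, the median log2 ratio was 0.09 for 3 against 0 days, 0.31 for 5 against 0 days and 0.25 for 5 against 3 days. Markers of erythroid cells, B cells, T cells, neutrophils and macrophages all had reads.

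The sequences just upstream of the transcription starts are shown for 6 of the genes, because within these pairs the mRNA either moved together (Mcpt8 and Cpa3) or moved apart (Fcer1a and Ms4a2, Epx and Hdc). Each sequence is the 250 bases before the start in RefSeq on GRCm38.p6, read 5′ to 3′ along the gene's own strand. The submitters' processing notes name another build (mm8), so these positions belong to RefSeq and not to the deposited tables. Capitals mark GATAA, a form of the site known for GATA factors, or TTATC, the same motif on the other strand. Other forms of the site were not searched for and are not marked. All 6 genes lie on the minus strand. Bases shortly after the start were found in a GENCODE transcript of the gene for every window except that of Fcer1a. The start of Fcer1a, and the distance of its motif, are therefore less certain. The windows are chr1:173227230-173227479 for Fcer1a, chr19:11623720-11623969 for Ms4a2, chr3:20242182-20242431 for Cpa3, chr14:56085198-56085447 for Mcpt8, chr11:87875537-87875786 for Epx and chr2:126618679-126618928 for Hdc.
Fcer1a: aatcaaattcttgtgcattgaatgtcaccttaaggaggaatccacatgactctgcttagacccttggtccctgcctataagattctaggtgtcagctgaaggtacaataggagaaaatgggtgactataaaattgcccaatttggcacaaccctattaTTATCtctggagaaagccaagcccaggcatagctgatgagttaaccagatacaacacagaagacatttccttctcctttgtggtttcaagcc
Ms4a2: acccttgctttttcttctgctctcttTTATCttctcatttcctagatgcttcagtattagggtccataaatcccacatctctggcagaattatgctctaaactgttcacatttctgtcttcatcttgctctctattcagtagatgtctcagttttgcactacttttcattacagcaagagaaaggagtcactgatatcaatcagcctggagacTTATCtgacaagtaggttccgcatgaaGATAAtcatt
Cpa3: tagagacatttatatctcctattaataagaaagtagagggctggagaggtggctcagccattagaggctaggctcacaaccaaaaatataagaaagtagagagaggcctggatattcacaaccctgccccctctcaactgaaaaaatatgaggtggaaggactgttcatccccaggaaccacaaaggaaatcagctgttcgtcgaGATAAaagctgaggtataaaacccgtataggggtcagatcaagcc
Mcpt8: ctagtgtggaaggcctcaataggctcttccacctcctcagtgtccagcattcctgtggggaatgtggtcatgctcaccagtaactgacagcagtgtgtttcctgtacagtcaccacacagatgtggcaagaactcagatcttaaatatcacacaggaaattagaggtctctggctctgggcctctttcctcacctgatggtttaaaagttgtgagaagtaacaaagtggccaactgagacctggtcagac
Epx: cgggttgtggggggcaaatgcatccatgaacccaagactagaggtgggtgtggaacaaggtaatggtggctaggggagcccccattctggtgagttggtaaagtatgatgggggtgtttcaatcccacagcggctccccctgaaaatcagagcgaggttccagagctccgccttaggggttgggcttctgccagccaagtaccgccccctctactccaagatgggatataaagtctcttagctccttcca
Hdc: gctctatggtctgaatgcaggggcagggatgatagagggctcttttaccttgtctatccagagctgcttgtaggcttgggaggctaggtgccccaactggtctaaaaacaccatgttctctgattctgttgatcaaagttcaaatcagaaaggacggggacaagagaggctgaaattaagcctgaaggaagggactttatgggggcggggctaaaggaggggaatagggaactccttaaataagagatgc

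Of the 10 genes, 9 were in the RefSeq promoter table, with 10 windows since Gata2 has a pair of starts. The motif was found in 5 of these 10 windows, and in 22.6% of the 32851 windows of the same length in the table. Ms4a2 held 3 copies, at 224, 37 and 10 bases before the start, and 0.712% of all windows held 3 or more. Fcer1a held 1 copy at 92 bases, Cpa3 1 at 45 bases, Il5ra 1 at 73 bases and Prss34 1 at 30 bases. No match was found in the windows of Mcpt8, Epx, Hdc and Gata2, which says only that these letters are not there. A match is a string of letters and not a measured site, and it is given as a description.

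All 10 genes were detected in all 3 libraries, with 49 reads or more, and all had at least 1 RPKM. Together they held 65693, 54300 and 62488 reads in the 3 libraries, or 0.42%, 0.36% and 0.40% of each. Prg2 alone accounted for 54.9%, 51.5% and 54.7% of these reads. The order of the levels at 0 days was Prg2, Prss34, Hdc, Mcpt8, Epx, Cpa3, Gata2, Fcer1a, Il5ra and Ms4a2, from 2771 down to 3.13 RPKM. Hdc (242 RPKM, interval 237 to 247) and Mcpt8 (239, 231 to 248) did not differ there beyond counting error, nor did Il5ra (3.55, 3.07 to 4.08) and Ms4a2 (3.13, 2.31 to 4.13). At 5 days Epx had passed Hdc and Mcpt8, Hdc stood just above Cpa3, and Ms4a2 (11.0 RPKM, 9.40 to 12.7) stood above Fcer1a (7.98, 6.65 to 9.49), with intervals that still touched.

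**Figure D1:**
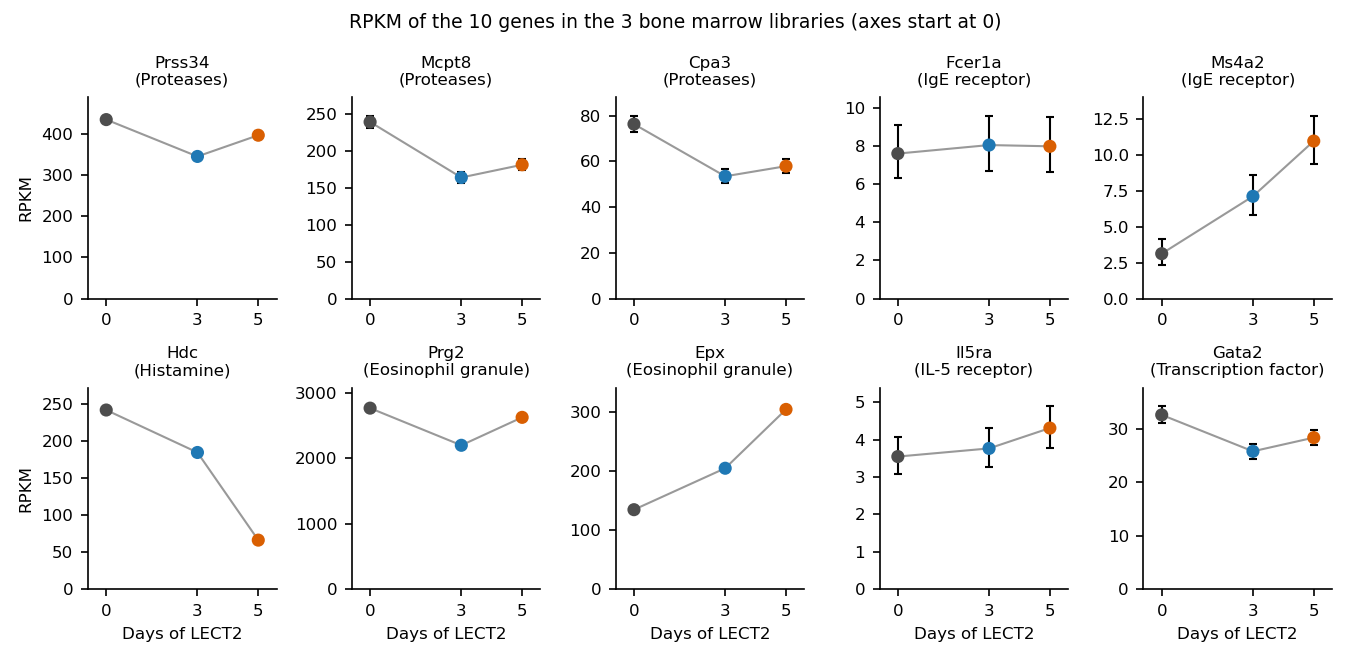
RPKM (vertical axes, each starting at 0) of the 10 genes after 0, 3 and 5 days of LECT2 (horizontal axes), with 1 point per library and bars for the 95% exact counting interval. Ms4a2 and Epx stand highest at 5 days, Hdc stands lowest at 5 days, and Prss34, Mcpt8, Cpa3, Prg2 and Gata2 are lowest at 3 days on this scale, which holds for Prg2 but not for the other 4 under TMM scaling.

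Changes are log2 ratios of RPKM + 0.1, which makes the differences of low genes look smaller, and a gene counts as higher or lower when it differs at least 2-fold. At 3 against 0 days, 1 of the 10 genes was higher (Ms4a2) and 0 were lower, where 4.08% of 11325 genes with at least 1 RPKM were higher and 2.41% lower. At 5 against 0 days, 2 were higher (Ms4a2 and Epx) and 1 was lower (Hdc), where 15.5% of 11497 genes were higher and 5.91% lower. At 5 against 3 days, 0 were higher and 1 was lower (Hdc), where 1.95% of 11375 genes were higher and 3.45% lower. Counts of 1 or 2 among 10 genes are too few to set against these shares, and the 2 higher genes at 5 days are not far from the share of all genes. The 3 comparisons share libraries and are not independent. The median of the 10 genes was −0.33, −0.10 and 0.17 in the same order, and 2, 2 and 3 of the 10 genes lay above the median of all genes.

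**Figure D2:**
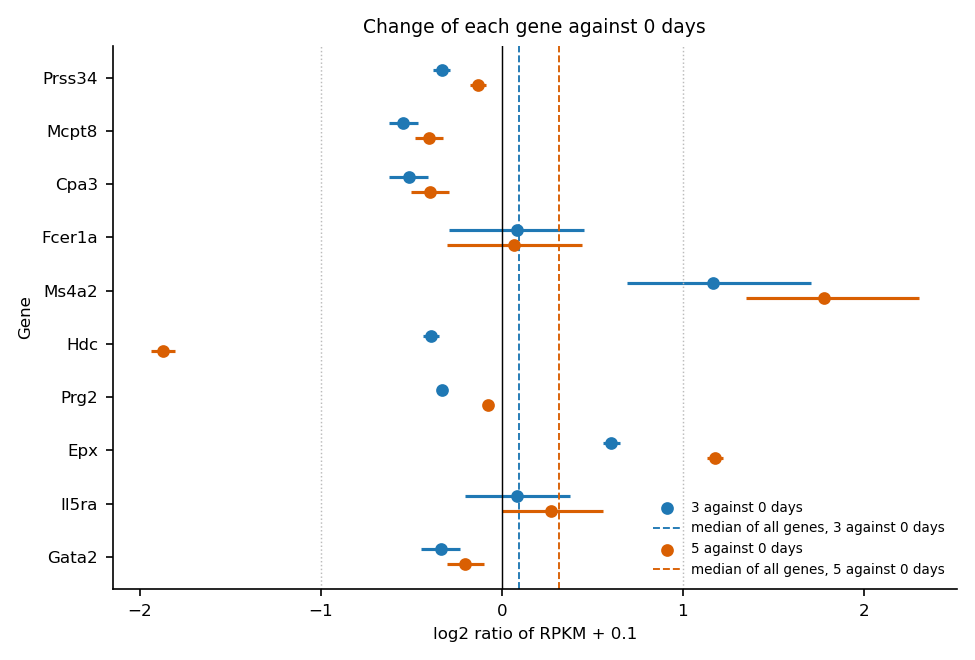
Log2 ratio of RPKM + 0.1 (horizontal axis) of each gene (vertical axis) for 3 against 0 days and 5 against 0 days, with bars for the 95% counting interval, dashed lines for the medians of all genes (0.09 and 0.31) and dotted lines at a 2-fold difference. Ms4a2 and Epx lie to the right of both medians, Hdc lies far to the left at 5 days, and Fcer1a has an interval that spans 0 at both times.

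The granule proteases were lower at both times than at 0 days, and none reached a 2-fold difference. They stood closer to the start at 5 than at 3 days with the deposited RPKM, an order that TMM scaling turns. Prss34 (gene ID 328780), the serine protease also known as mast cell protease 11, which mouse basophils make, had 8209, 6360 and 7487 reads at 0, 3 and 5 days, or 435, 345 and 397 RPKM. Its log2 ratio was −0.33 (95% interval −0.38 to −0.29) at 3 days and −0.13 (−0.18 to −0.09) at 5 days. Mcpt8 (17231), the mast cell protease 8 that in spite of its name marks mouse basophils, had 3137, 2098 and 2375 reads, or 239, 164 and 181 RPKM. The log2 ratio of Mcpt8 was −0.54 (−0.63 to −0.46) and −0.40 (−0.48 to −0.32). Cpa3 (12873), the carboxypeptidase A of mast cell granules, which basophils and their progenitors also carry, had 1726, 1180 and 1309 reads, or 76.3, 53.4 and 57.9 RPKM. The log2 ratio of Cpa3 was −0.51 (−0.62 to −0.41) and −0.40 (−0.50 to −0.29), so that the 3 proteases lay in the same direction in both comparisons and outside counting error. In these libraries log2 ratios rise with gene length, and removing that trend, which gives ratios relative to genes of similar length, moved Mcpt8 to −0.10 and −0.07 and Prss34 to −0.05 and −0.02, close to 0, and left Cpa3 at −0.32 and −0.39.

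Mcpt8 and Cpa3 kept nearly the same proportion in the 3 libraries with the deposited RPKM. A ratio within a library does not depend on how the libraries are scaled, but it does depend on the length trend where both transcripts differ in length, here 845 and 1458 bases. Cpa3 stood at 0.319, 0.326 and 0.319 of the RPKM of Mcpt8 at 0, 3 and 5 days. The log2 change of this ratio was 0.03 (−0.10 to 0.17) at 3 days and 0.00 (−0.13 to 0.13) at 5 days, where the interval is a normal approximation for the log ratio of 4 counts. With the length trend removed, a calculation added for these ratios after the data were seen, it was −0.21 and −0.33, so the proportion was then not kept. In the plane of the log2 ratios at 3 and 5 days, the distance between both genes was 0.03. Among 11143 genes, Mcpt8 was the 8th nearest gene to Cpa3 and Cpa3 was the 11th nearest to Mcpt8. Other genes lay as near or nearer, among them Qtrt1, Zcchc9 and Ppie to Mcpt8 and Zfp688, Rpl10 and Mettl22 to Cpa3, which is a likeness over 3 libraries and no more. Prss34 differed a little from Mcpt8, and the ratio of Prss34 to Mcpt8 was higher by 0.21 (0.12 to 0.30) at 3 days and by 0.27 (0.18 to 0.36) at 5 days on the log2 scale, which shrank to 0.06 and 0.05 without the length trend.

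The direction of other basophil genes depended on the scaling. Of 9 surface and cytokine genes, 6 had at least 1 RPKM. Of these 0 were higher and 1 was lower at 5 against 0 days, where 15.5% and 5.91% of all genes were. The median of the 6 was −0.19. With the deposited RPKM 2 lay above 0 and 4 below, whereas all 6 lay below 0 under TMM scaling (median −0.50) and relative to genes of similar length (median −0.43). The lower gene was Il4, the type 2 cytokine that basophils release, with 38, 16 and 7 reads and a log2 ratio of −2.29 (−3.85 to −1.26) at 5 days. Crlf2, the receptor of the cytokine TSLP and the most abundant of them, had 872, 854 and 745 reads and log2 ratios of 0.01 (−0.13 to 0.14) at 3 days and −0.23 (−0.37 to −0.08) at 5 days. Il18r1, a receptor chain for IL-18, had 359, 432 and 415 reads with log2 ratios of 0.30 (0.10 to 0.51) and 0.21 (0.00 to 0.42), and Il1rl1, the receptor of IL-33, had 269, 221 and 310 reads with −0.24 (−0.51 to 0.01) and 0.20 (−0.03 to 0.45). Cyp11a1, a steroid-making enzyme found in basophils and mast cells, had 12.3, 7.85 and 8.83 RPKM. Its lowest value was at 3 days with the deposited RPKM, as in Mcpt8 and Cpa3. From 3 to 5 days the log2 ratio of Cyp11a1 was 0.17 (−0.10 to 0.44), within counting error. It turned to −0.05 under TMM scaling and −0.06 relative to genes of similar length. Itga2, an integrin on basophils and platelets, ran the other way from 6 to 28 and 54 reads, but stayed under 1 RPKM.

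Genes known from mature mast cells were almost not detected. Of 11 such genes, 7 had a row, and 6 of them had 4 reads or fewer in every library (Mcpt1, Mcpt2, Mcpt4, Tpsb2, Tpsg1 and Mrgprb1). Cma1, the mast cell chymase, had 21, 10 and 7 reads, with a log2 ratio of −1.38 (−3.06 to −0.30) at 5 days. The summed level of the list was 1.58, 1.08 and 0.60 RPKM, beside 435 RPKM for Prss34 alone. The chromosomal neighbours showed the same split. Prss34 is followed in RefSeq by Prss28, Prss29, Tpsb2 and Tpsg1, the most abundant of which, Prss28, had 18, 16 and 21 reads. Mcpt8 lies between Mcpt4, with 0, 1 and 0 reads, and Ctsg, the cathepsin G of neutrophil granules, with 3314, 2913 and 4526 reads. How reads shared by such related proteases were assigned is not stated.

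The chains of the IgE receptor went different ways. Fcer1a (14125), the alpha chain that binds IgE, had 121, 125 and 127 reads at 0, 3 and 5 days, or 7.60, 8.04 and 7.98 RPKM. Its log2 ratio was 0.08 (−0.29 to 0.46) at 3 days and 0.07 (−0.30 to 0.44) at 5 days, and both intervals include 0. Ms4a2 (14126), the beta chain, had 49, 109 and 172 reads, or 3.13, 7.12 and 11.0 RPKM. That is a log2 ratio of 1.16 (0.69 to 1.71) at 3 days and 1.78 (1.35 to 2.30) at 5 days, and from 3 to 5 days it was 0.62 (0.27 to 0.98). At 3 days Ms4a2 stood at 228% and at 5 days at 351% of its RPKM at 0 days, and the intervals of the 3 levels did not overlap. Both transcripts are of nearly the same length, 1026 and 1010 bases, and the 500 genes nearest to Ms4a2 in length had medians of −0.37 and −0.20.

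Within a library, Ms4a2 stood at 0.411, 0.886 and 1.38 of the RPKM of Fcer1a at 0, 3 and 5 days. The log2 change of this ratio was 1.11 (0.50 to 1.71) at 3 days and 1.74 (1.16 to 2.32) at 5 days. Against Cpa3 the log2 change of Ms4a2 was 1.70 (1.20 to 2.20) and 2.21 (1.74 to 2.68). Ms4a2 was thus higher relative to both genes, and none of these ratios depends on the scaling of the libraries. With the length trend removed the changes were 1.09 and 1.72 against Fcer1a and 1.85 and 2.40 against Cpa3. The promoter windows of both chains are printed above, with 3 marked motifs in Ms4a2 and 1 in Fcer1a, whose start is less certain.

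Fcer1g, the gamma chain, which neutrophils, macrophages and other cells share with basophils, had 1706, 1307 and 851 RPKM. The log2 ratio of Fcer1g was −1.0035 (−1.04 to −0.97) at 5 days, and against Fcer1a the change was −1.07 (−1.44 to −0.71). Relative to genes of similar length both were under 2-fold, at −0.53 for Fcer1g and −0.82 for the change against Fcer1a. So at 5 days the alpha chain did not differ from 0 days beyond counting error, the beta chain was higher and the gamma chain was lower, by less than 2-fold once the length trend was removed. Ms4a2 lies in a cluster of related membrane proteins. On one side its neighbour Ms4a6d had 142, 236 and 547 reads with a log2 ratio of 1.93 (1.68 to 2.22) at 5 days, and beyond it Ms4a6b had 441, 691 and 1227 reads with 1.47 (1.32 to 1.64). On the other side Ms4a3, a gene of early granulocytes, had 2196, 1546 and 2256 reads with 0.04 (−0.05 to 0.13). Of the 9 macrophage markers 4 were higher at 5 days as Ms4a2 was (Siglec1, Csf1r, Mertk and Cd68, with log2 ratios from 1.27 to 1.95), where 15.5% of all genes were, and 3 lay below 0 (C1qa at −0.20, C1qc at −0.06 and C1qb at −0.05, the last 2 turning to 0.13 and 0.14 relative to genes of similar length). Cd68 was under 2-fold with TMM scaling, at 0.97. These 9 markers had a summed level of 293, 358 and 449 RPKM with none at 0 reads, and their part in the value of Ms4a2 was not tested.

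Of the 17 genes of signalling from the IgE receptor, all had at least 1 RPKM, and 2 were higher and 1 was lower at 5 against 0 days, which is near the shares of all genes (15.5% and 5.91%). Their median was 0.36, beside 0.31 for all genes. The 2 higher genes were Plcg1, a phospholipase C, with 3.15, 6.30 and 9.43 RPKM and a log2 ratio of 1.55 (1.36 to 1.81), and Sos1, an activator of Ras, with 2.88, 4.43 and 6.74 RPKM and 1.20 (1.05 to 1.40). The lower one was Fcer1g, which is also the most abundant of the list. The kinases Lyn and Syk, which act next to the receptor, had log2 ratios of 0.30 (0.25 to 0.35) and 0.48 (0.44 to 0.51), and most cells of the marrow express them. Under TMM scaling 1 gene was higher (Plcg1) and 2 were lower (Fcer1g and the adaptor Lat), where 7.13% and 10.2% of all genes were, and the median was 0.05. Relative to genes of similar length 0 were higher, which ended the calls of Plcg1 and Sos1, 1 was lower, which was the kinase Prkcb at −1.14 in place of Fcer1g, 13 of the 17 lay below 0 and the median turned to −0.20. The shares of all genes were then 5.05% higher and 7.61% lower.

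Hdc (15186), the enzyme that makes histamine from histidine, had the lowest ratio of the 10 genes at 5 days. It had 8941, 6655 and 2443 reads at 0, 3 and 5 days, or 242, 185 and 66.2 RPKM. The log2 ratio was −0.39 (−0.44 to −0.34) at 3 days and −1.87 (−1.94 to −1.81) at 5 days, which left 27.3% of the starting level. Most of the difference lay between 3 and 5 days, with −1.48 (−1.55 to −1.41). The 500 genes nearest in length had a median of 0.33 at 5 days, so Hdc also went against genes of its own length.

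Hdc did not keep its proportion to the basophil proteases. It stood at 3.18, 3.46 and 1.14 times the RPKM of Cpa3 at 0, 3 and 5 days. The log2 change of this ratio was 0.12 (0.01 to 0.24) at 3 days and −1.47 (−1.59 to −1.35) at 5 days. Removal of the length trend gave −0.13 and −1.76. Slc18a2, the transporter that loads histamine into granules, had 4.13, 4.83 and 4.64 RPKM, and the ratio of Hdc to it was lower by 2.04 (interval of the change −2.30 to −1.78) at 5 days. Of the 7 genes of histamine handling and its receptors, 5 had a row and 3 had at least 1 RPKM, and 0 were higher or lower 2-fold at 5 days, with a median of 0.16 that turned to −0.14 under TMM scaling and −0.39 relative to genes of similar length. Hnmt, which degrades histamine and was the most abundant of them, had 5.69, 5.67 and 3.51 RPKM with −0.68 (−1.09 to −0.31).

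Neutrophils and their precursors are also known to express Hdc, and at 5 days the markers of late neutrophils were lower while those of promyelocytes, an early precursor, were not. All 5 promyelocyte markers with a row lay above 0 with the deposited RPKM, with a median of 0.45 and none at 0 reads. Under TMM scaling 4 lay above 0 and 1 below, with a median of 0.14. Relative to genes of similar length all 5 lay above 0, with 0.68. Their summed level was 2241, 2075 and 3619 RPKM. Of 12 late neutrophil markers 11 had a row and none was at 0 reads. All 10 with at least 1 RPKM were lower at 5 against 0 days, where 5.91% of all genes were, with a median of −1.84. Relative to genes of similar length 9 of them remained lower 2-fold, where 7.61% of all genes were, Ngp being the exception at −0.95. The largest of these differences were those of Retnlg at −3.96, Mmp8 at −2.53, S100a9 at −2.14 and Camp at −1.98. Their summed level was 149807, 115887 and 41359 RPKM. At 3 against 0 days none of the 10 was lower 2-fold and the median was −0.19 (0.14 relative to genes of similar length), so that list and Hdc had their larger difference after 3 days. The ratio of Hdc to S100a9, the most abundant marker, changed by 0.09 (0.05 to 0.14) at 3 days and 0.27 (0.20 to 0.33) at 5 days, and its sign turned to −0.59 and −0.69 with the length trend removed. Against single markers the change at 5 days ran from −0.79 (−0.85 to −0.72) for Ngp to 0.66 (0.59 to 0.74) for Mmp8 and 2.09 (2.01 to 2.17) for Retnlg, or from −1.21 to 1.26 for the same genes with the length trend removed. The genes with the pattern most like that of Hdc over the 3 libraries were Socs3, Fstl1 and the late neutrophil marker Lcn2, at distances of 0.04, 0.09 and 0.09, and 4 of 11143 genes lay within 0.1. The part of neutrophils in the value of Hdc was not tested. In bulk cells, fewer cells of a type and less RNA per cell cannot be told apart, here and for every gene of this report.

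The granule proteins of the eosinophil differed from each other. Prg2 (19074), the major basic protein, which basophils also carry, had 36043, 27948 and 34188 reads at 0, 3 and 5 days, or 2771, 2202 and 2629.6 RPKM. It was among the most abundant transcripts of the marrow, at rank 14, 13 and 9 of all genes. The log2 ratio was −0.33 (−0.35 to −0.31) at 3 days and −0.08 (−0.10 to −0.05) at 5 days, and its sign turned to 0.11 and 0.26 once the length trend was removed. Epx (13861), the eosinophil peroxidase, had 5624, 8351 and 12718 reads, or 135, 205 and 305 RPKM, and went from rank 560 to 328 and 198. For Epx the log2 ratio was 0.61 (0.56 to 0.65) at 3 days and 1.18 (1.13 to 1.22) at 5 days. The 5-day value passed 2-fold with the deposited RPKM but was 0.87 under TMM scaling, 0.98 without the 100 most abundant genes and 0.81 relative to genes of its length.

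Prg2 stood at 20.6, 10.7 and 8.63 times the RPKM of Epx at 0, 3 and 5 days. The log2 change of Epx over Prg2 was 0.94 (0.88 to 0.99) at 3 days and 1.25 (1.20 to 1.30) at 5 days. Library scaling does not alter it, but the transcripts differ in length, 2691 and 838 bases, and with the length trend removed it was 0.38 at 3 days and 0.55 at 5 days, under 2-fold. Prg3, the homologue of Prg2 that lies next to it on the chromosome, had 147, 112 and 155 RPKM, and the ratio of Prg3 to Prg2 changed by −0.07 (−0.16 to 0.03) and 0.16 (0.07 to 0.24). Prg2 and Prss34, proteins of different function, stayed close, with a change of their ratio of 0.00 (−0.05 to 0.05) at 3 days and −0.06 (−0.11 to −0.01) at 5 days, or −0.16 and −0.29 with the length trend removed. Epx has the myeloperoxidase gene Mpo, a related peroxidase of neutrophil precursors, near it on the chromosome. Mpo had 435, 581 and 1237 RPKM with a log2 ratio of 1.51 at 5 days, and Epx over Mpo changed by 0.19 (0.13 to 0.24) at 3 days and by −0.33 (−0.38 to −0.28) at 5 days. Lpo, the third peroxidase beside them, had 6, 7 and 7 reads. How reads common to Epx and Mpo were assigned is not stated, and their part was not tested.

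No other eosinophil gene on the list reached the 2-fold difference of Epx. Of 9, 8 had a row and 6 had at least 1 RPKM, and 0 were higher or lower 2-fold in any comparison, with medians of 0.22 and 0.10 at 3 and 5 days. The 5-day median turned to −0.21 under TMM scaling and was 0.39 relative to genes of similar length. Ear1, an eosinophil-associated ribonuclease and the most abundant of them, had 499, 548 and 543 RPKM with 0.12 (0.07 to 0.18) at 5 days. Ear6 was higher at both times, with 2960, 3562 and 4027 reads and log2 ratios of 0.30 (0.23 to 0.37) and 0.44 (0.38 to 0.51), and Ear2 stood at 313, 317 and 312 RPKM. The ribonucleases Ear1, Ear2 and Ear6 are near-identical copies, so the split of reads among them is uncertain. Ccr3, the eotaxin receptor, had 6.18, 9.18 and 8.57 RPKM with 0.56 (0.36 to 0.78) at 3 days, close to Epx, and 0.46 (0.26 to 0.69) at 5 days, and Alox15, a lipoxygenase, had 93.8, 117 and 81.1 RPKM with −0.21 (−0.28 to −0.14) at 5 days. The gene listed as Siglec5, the surface lectin Siglec-F of eosinophils, had 18, 23 and 33 reads and stayed under 1 RPKM.

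**Figure D3:**
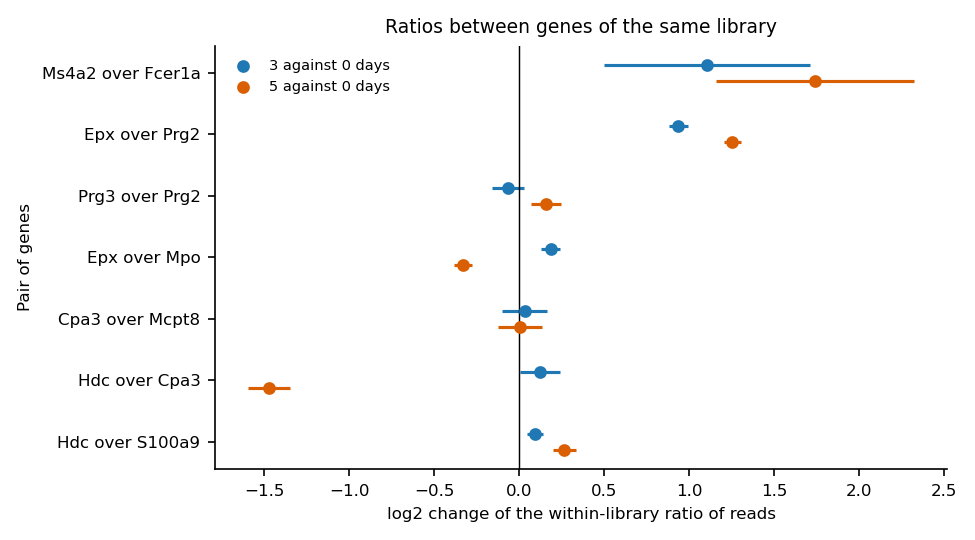
Log2 change of the ratio of the reads of 2 genes within a library (horizontal axis) for 7 pairs (vertical axis), for 3 against 0 days and 5 against 0 days, with bars for the 95% counting interval. Ms4a2 over Fcer1a and Epx over Prg2 lie to the right at both times, Hdc over Cpa3 lies at −1.47 at 5 days, and Cpa3 over Mcpt8 lies at 0. Without the trend on gene length, which the plot does not remove, Epx over Prg2 would lie at 0.38 and 0.55, Cpa3 over Mcpt8 at −0.21 and −0.33, and Hdc over S100a9 at −0.59 and −0.69.

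Il5ra (16192), the chain of the IL-5 receptor that binds IL-5, was low and differed little. It had 196, 203 and 238 reads at 0, 3 and 5 days, or 3.55, 3.77 and 4.31 RPKM. Its log2 ratio was 0.08 (−0.20 to 0.38) and 0.27 (0.00 to 0.56), below the median of all genes at both times. At 5 days it was −0.03 under TMM scaling and −0.25 with the length trend removed, so its direction depends on the scaling. Within a library the ratio of Il5ra to Epx was lower, by −0.52 (−0.81 to −0.23) at 3 days and −0.90 (−1.17 to −0.62) at 5 days.

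With the deposited RPKM most other receptor and signalling genes of IL-3, IL-5 and GM-CSF had higher ratios than Il5ra. The exception among those with at least 1 RPKM was Il3ra, the IL-3 receptor chain, at 0.06 and 0.25. Relative to genes of similar length Il5ra stood at −0.16 and −0.25, so this order is not free of the length trend. Of the 10 genes, 9 had a row and 7 had at least 1 RPKM, all 7 lay above 0 at both times, and 2 were higher 2-fold at 5 days, where 15.5% of all genes were, with a median of 0.70 beside 0.31 for all genes. Csf2rb, the shared signalling chain that pairs with Il5ra, had 22.3, 43.9 and 52.3 RPKM with a log2 ratio of 1.23 (1.15 to 1.32), and the kinase Jak2, which acts below it, had 14.1, 21.3 and 28.5 RPKM with 1.01 (0.91 to 1.12). Csf2rb2, its near-identical copy, had 8.77, 13.2 and 15.7 RPKM, and the split of reads between them is uncertain. Csf2ra, the GM-CSF receptor chain and the most abundant of the list, had 117, 180 and 166 RPKM with 0.51 (0.44 to 0.57). Under TMM scaling 0 genes of the list were higher 2-fold, where 7.13% of all genes were, 6 of 7 lay above 0 at 5 days and the median was 0.39. Relative to genes of similar length these values were 0, 6 and 0.28, with 5.05% of all genes higher. Of the ligands, Il3 had no row, Il5 had 0, 0 and 1 reads and Csf2 had 11, 10 and 0 reads. Most of these receptor genes are shared by neutrophils, monocytes and their progenitors.

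Gata2 (14461), the transcription factor of early progenitors, mast cells and basophils, had 1647, 1271 and 1431 reads at 0, 3 and 5 days, or 32.6, 25.8 and 28.3 RPKM. Its log2 ratio was −0.34 (−0.45 to −0.23) at 3 days and −0.20 (−0.31 to −0.10) at 5 days. Of the 10 genes it followed the shape of Prss34 and Prg2 most closely, at a distance of 0.07 from Prss34, with the deposited RPKM. Gata2 is a long transcript of 3258 bases, and the 500 genes nearest in length had a median of 0.44 at 5 days, so with the length trend removed Gata2 stood at −0.54 at 3 days and −0.68 at 5 days. Prss34 then stood at −0.05 and −0.02 and Prg2 at 0.11 and 0.26, so the likeness of Gata2 to both was lost. Against Cpa3 its ratio changed by 0.17 (0.02 to 0.32) and 0.20 (0.05 to 0.34), which turned to −0.23 and −0.29 with the length trend removed.

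Gata1, the related factor of erythroid cells, megakaryocytes, mast cells and eosinophils, had 628, 438 and 613 reads, and the ratio of Gata2 to Gata1 changed by 0.15 (−0.06 to 0.35) at 3 days and −0.17 (−0.36 to 0.02) at 5 days, or −0.15 and −0.53 with the length trend removed. Of 14 transcription factors of these lineages, 13 had a row and at least 1 RPKM, 0 were higher or lower 2-fold at either time, and the medians were 0.16 and 0.21. The 5-day median turned to −0.10 under TMM scaling and −0.06 relative to genes of similar length. The most abundant was Irf8, a factor of monocytes and of basophil and mast cell precursors, with 111, 113 and 172 RPKM and a log2 ratio of 0.63 (0.58 to 0.69). Gata2 is also expressed by stem and progenitor cells and megakaryocytes. Of the 7 megakaryocyte markers with at least 1 RPKM, 6 lay below 0 at 3 days, with a median of −0.80. Of these 7, 2 were lower 2-fold, where 2.41% of all genes were. Relative to genes of similar length 1 was lower, where 1.81% of all genes were, with a median of −0.60. Over all 10 megakaryocyte markers the summed level was 43.0, 22.3 and 40.7 RPKM, with Gp6 at 0 reads at 0 days. The 10 stem and progenitor markers with at least 1 RPKM had medians of −0.20 and 0.06, with 1 lower 2-fold and 3 above 0 at 3 days (Erg, Kit and Cd48), and a summed level over all 12 of 121, 117 and 161 RPKM with none at 0 reads. The most abundant of them was Cd48, at 0.57 (0.45 to 0.69) at 5 days. The only gene of this list higher 2-fold was Erg, at 1.11 (0.91 to 1.33), where 15.5% of all genes were higher. That call ended under TMM scaling (0.80) and relative to genes of similar length (0.87). The 5-day median of this list turned to −0.23 and −0.37 in the same order. Their part in the values of Gata2 was not tested.

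The enzymes that make leukotrienes and prostaglandins, lipid mediators released by all these cells, held 7 genes with at least 1 RPKM. At 5 against 0 days 0 were higher or lower 2-fold and the median was −0.02, or −0.33 under TMM scaling. Alox5ap, the most abundant, which neutrophils also express, had 802, 672 and 430 RPKM with −0.90 (−0.95 to −0.85), which passed 2-fold under TMM scaling, at −1.21. Ltc4s, the enzyme of leukotriene C4, had 18, 5 and 13 reads.

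The remaining marker lists at 5 against 0 days had medians between −0.53 and 0.45, with single genes further out. Of all genes 15.5% were higher and 5.91% lower 2-fold, or 7.13% and 10.2% under TMM scaling. Of the 5 promyelocyte markers 1 was higher 2-fold, which was Mpo, and the median was 0.45, with Elane as the most abundant at 0.35. None of the 8 erythroid and 8 B cell markers differed 2-fold, their medians being 0.09 and −0.36, with Car2 at −0.43 and Cd79a at −0.64 as the most abundant. Of the 7 T cell markers with at least 1 RPKM 1 was lower, which was Cd3d at −1.99, and the median was −0.53, while the most abundant, Il7r, stood at 0.93. Under TMM scaling 1 erythroid marker (Alas2, at −1.02) and 1 B cell marker (Vpreb1, at −1.18) were lower 2-fold and Cd3g joined Cd3d among T cell markers, with medians of −0.21, −0.67 and −0.83, and the promyelocyte median was 0.14. Relative to genes of similar length the erythroid median was −0.33, so its sign depends on the scaling.

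**Figure D4:**
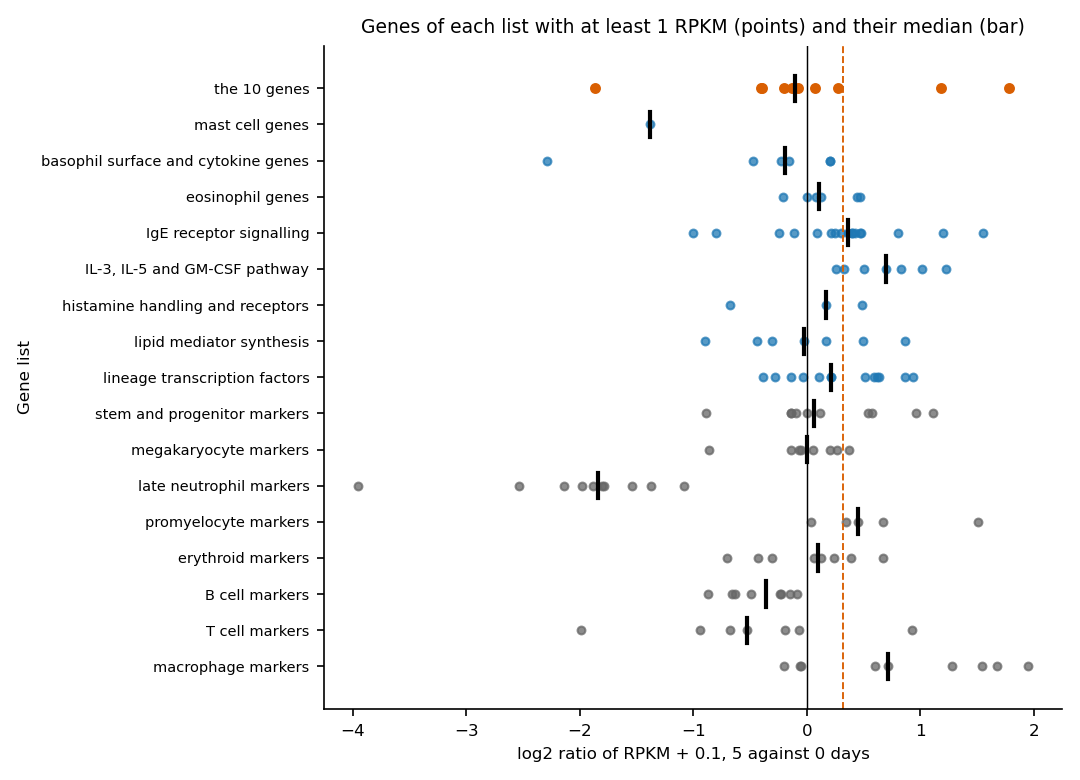
Log2 ratio of RPKM + 0.1 at 5 against 0 days (horizontal axis) of every gene that reached 1 RPKM at 0 or 5 days, for the 10 genes and 16 gene lists (vertical axis), with a black bar at each median and a dashed line at the median of all genes (0.31). The late neutrophil markers all lie below −1, where Hdc also lies, while the eosinophil genes lie between −0.21 and 0.46.

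Over the 3 libraries many genes of unrelated function lay near most of the 10 genes, and few lay near Hdc and Ms4a2. Hdc and Ms4a2 had the largest differences of the 10 genes at 5 days. Genes are sparse that far out, so few neighbours come with the size and show nothing particular to either gene. Likeness was measured as the distance in the plane of the log2 ratios at 3 and 5 days, from the deposited RPKM with its length trend. A distance of 0.1 is smaller than the counting error of Ms4a2, Fcer1a and Il5ra, so their neighbours are uncertain. Within 0.1 of Ms4a2 lay 19 of 11143 genes, the nearest being Dnajc13, Abca3 and Tfg, and within 0.1 of Epx lay 149, the nearest being Mlec, Ercc6 and Ldlrad3. For the other genes apart from Hdc the number ran from 105 for Mcpt8 to 315 for Il5ra. The nearest to Prss34 were Nae1, Angpt1 and Snx5, those to Prg2 were Psmc3, Metap2 and Ppil3, and those to Gata2 were Sap30l, Nudt16l1 and Sucla2. Fcer1a lay closest to Klhl6, Adrbk1 and Fam3c, and Il5ra to Mzt1, St3gal4 and Arid2. Ms4a2 and Epx were each other's nearest among the 10 genes, but at a distance of 0.82.

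How the libraries are scaled decides several directions among the smaller differences. TMM scaling multiplies the library sizes by 0.913, 0.968 and 1.13, and so lowers every ratio at 5 against 0 days by nearly the same amount. Under it the 5-day values were −0.44 for Prss34, −0.71 for Mcpt8 and Cpa3, −0.51 for Gata2 and −0.38 for Prg2, and Fcer1a turned to −0.24. Ms4a2 stood at 1.48 and Hdc at −2.18 under TMM scaling, and with the length trend removed both also stayed past 2-fold in the same direction. From 3 to 5 days Prss34, Mcpt8, Cpa3 and Gata2 had ratios of 0.20, 0.14, 0.11 and 0.14 as deposited and of −0.02, −0.08, −0.11 and −0.09 under TMM scaling, so whether they were higher at 5 than at 3 days depends on the scaling. Of all genes past 2-fold at 5 against 0 days, 72.4% were higher as deposited and 41.3% once TMM factors were applied, and at 3 against 0 days the shares were 62.9% and 49.0%.

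**Figure D5:**
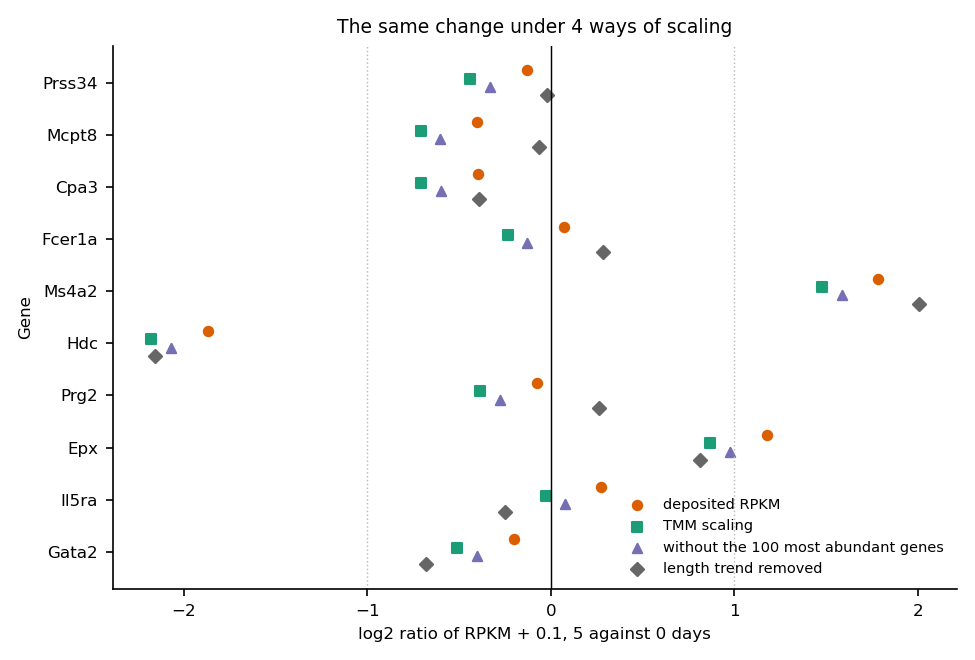
Log2 ratio of RPKM + 0.1 at 5 against 0 days (horizontal axis) of each gene (vertical axis) with the deposited RPKM, under TMM scaling, with libraries scaled on the reads outside the 100 most abundant genes and after removal of the trend on gene length, with dotted lines at a 2-fold difference. Ms4a2 stays above 1 and Hdc below −1 in all 4, Epx passes 1 only with the deposited RPKM, and Fcer1a, Prg2 and Il5ra lie on both sides of 0.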

How the data were processed

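BM cells of mice treated with LECT2 for 0, 3 or 5 days gave 3 RNA-sequencing libraries. According to the labels and the methods, mRNA was enriched with oligo(dT) beads, libraries were made with an Illumina TruSeq kit and sequenced on a HiSeq instrument, and expression was quantitated with Cufflinks. The submitters' processing notes name the build mm8. The aligner, the annotation and whether strand was used are not given in the sources used here. The authors deposited 3 tables, 1 for each pair of time points, with read counts per gene, and the counts were used as deposited. The RPKM of each gene was computed by the authors from the count, the gene length and the library total, without further normalization. This held to within 0.1% for the 10 genes, and it failed for 18 rows at 0 days and 14 at 3 days. The authors gave genes with 0 reads a value of 0.01 RPKM, which was replaced by 0. The authors' own log2 ratios, p-values and false discovery rates in the deposited tables compare pairs of libraries and were not used.

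The tables hold 17559 rows, of which 28 have no symbol. Those rows were given the RefSeq symbol of their gene ID, or else the gene ID as a name. With these names there were 17250 symbols. For repeated symbols the most abundant row was used, which applied to none of the 10 genes. Log2 ratios of the deposited RPKM were computed with a pseudocount of 0.1, with exact 95% intervals of the ratio of counts (scipy 1.17.1). Genes were counted as higher or lower from 2-fold, if they reached 1 RPKM in 1 of the libraries compared. No p-value was computed, since each time point has 1 library. The depth, 15146983 to 15523952 reads per library, gives intervals that are narrow for the abundant genes and wide for Fcer1a, Ms4a2 and Il5ra. The 10 genes and the 16 lists of pathway and marker genes were chosen with earlier results of these data known. From each list the text names the most abundant gene and up to 4 past 2-fold at 5 days with at least 20 reads, and for a gene of the report the 3 nearest genes in the plane of both log2 ratios. Further list genes were named for their role after their values were seen. The alternatives were TMM (edgeR 4.0.16) and median-of-ratios scaling (DESeq2 1.42.0), used for scaling only, scaling without the 100 most abundant genes, pseudocounts of 1 and 0.01, the sum of rows, removal of the length trend (lowess, span 0.3, statsmodels 0.14.6), no minimum, a minimum of 5 RPKM and a fold threshold of 4. The 2-fold calls and the intervals of log2 ratios were tested on simulated counts that held counting error only. The scalings, removal of the length trend, ratios between pairs of genes, nearest genes and motif search were not tested so. Gene order and promoter sequences are from RefSeq (GRCm38.p6), in which Prg2 had no promoter entry. Python 3.11.15, pandas 2.3.3, numpy 2.4.6, matplotlib 3.10.9 and R 4.3.3 were used.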

Additional observations from a re-analysis of the deposited data

How the results depend on the processing

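No paired analysis was possible because there is 1 library per time point, and no library could be left out. No direction of a gene past 2-fold turned under any alternative. The number of the 10 genes at least 2-fold higher at 5 against 0 days went from 2 to 1 under TMM scaling, median-of-ratios scaling, scaling without the 100 most abundant genes and removal of the length trend, the gene lost being Epx, and to 0 with a threshold of 4-fold. At 3 against 0 days it went from 1 to 0 with a pseudocount of 1 and with a threshold of 4-fold. The 1 gene lower at 5 days, against 0 and against 3 days, went to 0 with a threshold of 4-fold. The median of the 10 genes moved at 3 against 0 days from −0.33 to −0.43 without the 100 most abundant genes and to −0.075 with the length trend removed. At 5 against 0 days it moved from −0.10 to −0.41 under TMM, −0.40 under median-of-ratios and −0.31 when the 100 most abundant genes were left out. At 5 against 3 days it moved from 0.17 to −0.054 under TMM, −0.048 under median-of-ratios, 0.063 when the 100 most abundant genes were left out and −0.046 after removal of the length trend. Of the 30 single ratios, 8 changed sign under TMM, 7 under median-of-ratios, 3 without the 100 most abundant genes, 7 with the length trend removed and 0 with other pseudocounts or the sum of rows, all of them ratios under 2-fold. For the ratios between pairs of genes within a library, removal of the length trend, added after the data were seen, moved 25 of 54 changes beyond their counting interval and turned the sign of 12, none of them 2-fold.

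Of the 75 genes of the 8 pathway lists with a row, 0 were higher and 3 lower at 3 against 0 days, 4 higher and 3 lower at 5 against 0 days, and 1 higher and 1 lower at 5 against 3 days. At 3 against 0 days, 3 were higher with no minimum, and the number lower was 0 with a pseudocount of 1 or a 4-fold threshold and 1 with the length trend removed or a minimum of 5 RPKM. At 5 against 0 days the number higher was 1 under TMM and median-of-ratios, 2 with a pseudocount of 1, and 0 with the length trend removed or a 4-fold threshold. The number lower was 5 under TMM, median-of-ratios, without the 100 most abundant genes and with no minimum, and 1 with a minimum of 5 RPKM or a 4-fold threshold. At 5 against 3 days the number higher was 0 with a pseudocount of 1, a minimum of 5 RPKM or a 4-fold threshold and 2 with no minimum. The number lower was 2 under TMM, median-of-ratios, removal of the length trend and scaling without the 100 most abundant genes, 4 with no minimum, and 0 with a pseudocount of 1, a minimum of 5 RPKM or a 4-fold threshold. The thresholds and minimums change these counts by construction, and for the scalings the shares of all genes moved as well and the cause was not tested. At 5 against 0 days 15.5% of all genes were higher and 5.91% lower as deposited, 7.13% and 10.2% under TMM, and 5.05% and 7.61% with the length trend removed, and nothing particular to the lists is read from these counts. Depth limits Fcer1a, Ms4a2 and Il5ra most.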
